A study of Mus musculus with 24 samples.

Results

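The mitosis and cytokinesis genes are 43 protein-coding genes whose products act in the G2 and M phases of the cell cycle, taken by symbol from the 16118 mouse genes with a value, and all 43 passed the filter on low reads that left 16005 genes for testing. Their RNA was counted in the inguinal white fat pad, which lies under the skin of the groin, in 24 mice with 1 library per mouse. The 6 groups held 4 animals each. Males and females were taken at postnatal day p21, at p28 when weaned at p21 (standard weaning, SW) or at p28 when left with the mother until then (delayed weaning, DW). The labels give no strain, genotype or litter, so p-values measure the spread between these animals, which may share litters. The study asked how the depot is remodelled in each sex when breastfeeding is prolonged.

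A cell that divides first copies its DNA in S phase and then makes the proteins that condense, attach and separate the chromosomes and split the cell, the stages called mitosis and cytokinesis. The RNAs of these proteins rise together in G2 and are held low in resting cells by a repressor complex named DREAM, while complexes with B-MYB and FOXM1 activate them. In young fat pads the cells that divide include progenitors of adipocytes, endothelial cells and immune cells, whereas mature adipocytes rarely divide. In whole tissue, fewer dividing cells and less of these RNAs per dividing cell cannot be told apart.

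Libraries held between 57600711 and 302145813 recovered reads in the listed genes, and every member had at least 30 reads in every animal. Some libraries stood apart. Male 53 at p21 had a read for 14054 genes, against 15497 in SW male 84 and 15859 or more in the other 22 animals. DW females 82 and 83 both stood above the other DW females for 30 of the 43 genes, so results in DW females are also given without them. The defining adipocyte genes were present in every animal: Adipoq, which encodes the hormone adiponectin, lay between 787 and 1527 normalised units.

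At p28 the mitosis and cytokinesis genes were higher after delayed weaning in both sexes. All 43 had a higher mean log2 value in DW than in SW animals in males and in females. By limma on log2(value + 1), with Benjamini-Hochberg adjustment over all genes and a call at an adjusted p under 0.05, 19 of the 43 rose in males and none fell. In females 28 rose and none fell. The background was low: 0.231 percent of all genes tested were called higher in DW males and 0.462 percent in DW females. The median log2 change over the 43 genes was 0.83 in males and 0.82 in females, beside 0.004 and -0.02 over all genes. These members made up 19 of the 37 genes that rose in DW males and 28 of the 74 that rose in DW females.

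15 members rose in both sexes: Mki67, Top2a, Ccna2, Prc1, Bub1b, Cenpe, Kif20a, Kif20b, Kif23, Kif4, Kif2c, Tpx2, Hmmr, Nuf2 and Ckap2l. Of these, Prc1, Tpx2 and Ckap2l alone were called in both sexes in every fit with 1 animal left out. 4 passed the test in males alone (Iqgap3, Cenpf, Ube2c and Dlgap5), 13 in females alone, and 11 in neither. The test of the difference between the sexes called none of the 43, and no member had an unadjusted p under 0.05 for that difference by limma, edgeR or DESeq2. Over all genes 0.0187 percent were called for it. The widest differences were those of Cenpa, at 0.54 ± 0.37 (SE) log2 units larger in females, and of Iqgap3, at -0.42 ± 0.35. A call in one sex alone was therefore not shown to be a difference between the sexes.

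**Figure D1:**
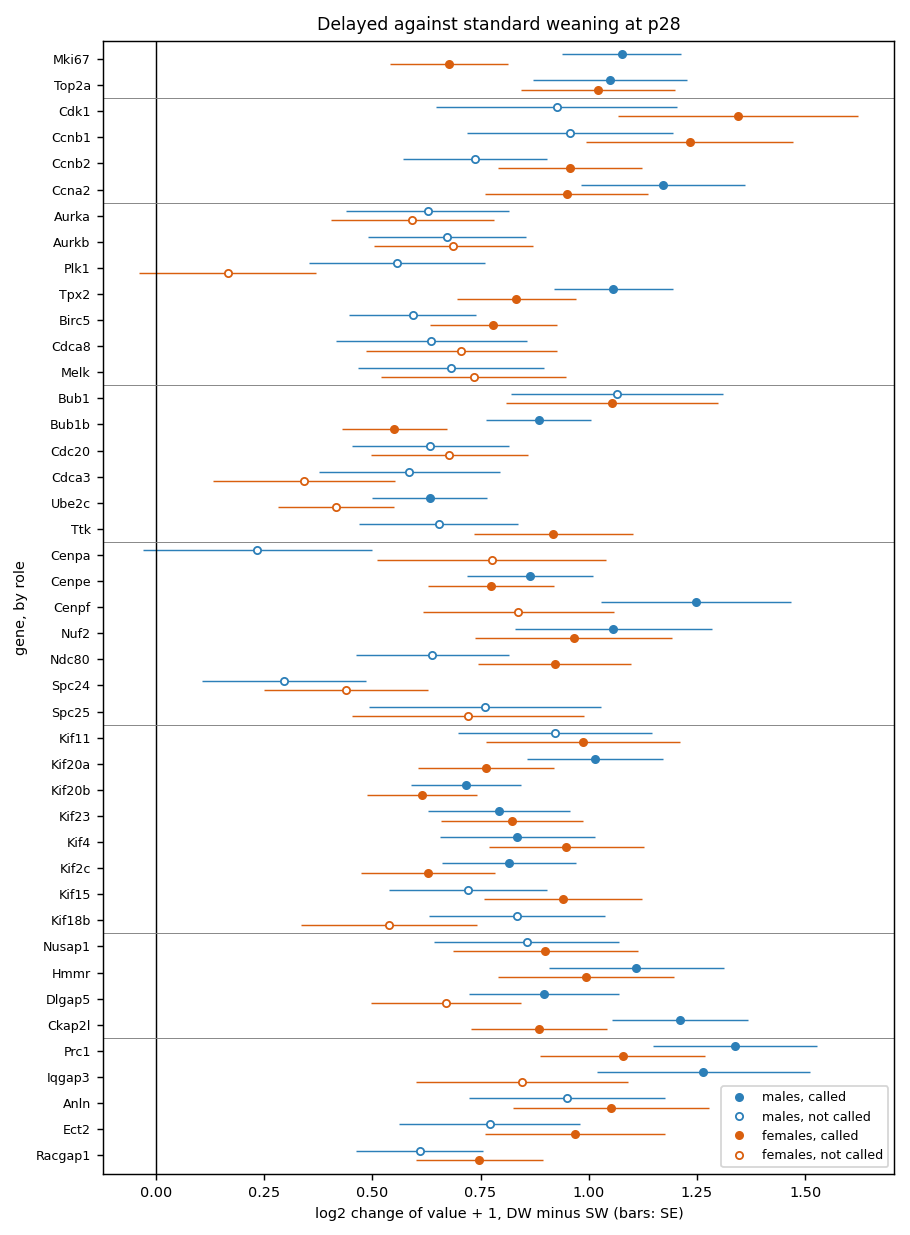
Log2 change of value + 1 from SW to DW at p28 (x axis) for each of the 43 genes (y axis, grouped by role), in males and females, with bars of 1 SE and filled points for genes called by limma. All points lie to the right of 0, from 0.17 for Plk1 in females to 1.34 for Prc1 in males and 1.35 for Cdk1 in females.

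In males the 2 groups did not overlap for any of the 43 genes: every DW male lay above every SW male, a pattern found for 5.34 percent of all genes. In females 34 of the 43 showed it, against 2.27 percent of all genes. The 9 members with overlap in females were Bub1, Plk1, Cenpa, Kif11, Cdc20, Cdca3, Ube2c, Spc24 and Spc25.

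DW females 82 and 83 differed from DW females 76 and 77. For 30 members both of these animals lay above both DW females 76 and 77, for 2 members (Plk1 and Cdca3) both lay below, and for 11 they did not separate. Shares of all genes with these patterns are not given. The ratio of the mean of 82 and 83 to the mean of 76 and 77 had a median of 1.49 over the 43 genes, and ran from 0.51 for Plk1 to 3.03 for Cdk1. Without females 82 and 83, limma called 0 of the 43 members in females, with a median change of 0.59, 36 members at an unadjusted p under 0.05 and a lowest adjusted p of 0.118. Without 82 alone it called 5 and without 83 alone 7, whereas it called 38 without 76. DW females 76 and 77 were both above every SW female for 37 members. All 43 had a higher mean in those 2 animals than in the 4 SW females. The share of all genes with 2 animals above 4 is not given, and the 2.27 percent above is for 4 against 4. In males, 7 members were called without DW male 87, and 11 without SW male 84, SW male 124 or DW male 79. Fitted on the compared groups alone by limma, 33 members were called in males and 0 in females. In females 41 members had an unadjusted p under 0.05 there, and the lowest adjusted p was 0.11. No share of all genes called is given for this fit or for the fits with animals left out, so their counts have no background. Called in every fit with 1 animal left out were Mki67, Ccna2, Prc1, Bub1b, Kif20a, Tpx2 and Ckap2l in males and Top2a, Ccnb2, Prc1, Tpx2 and Ckap2l in females.

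**Figure D2:**
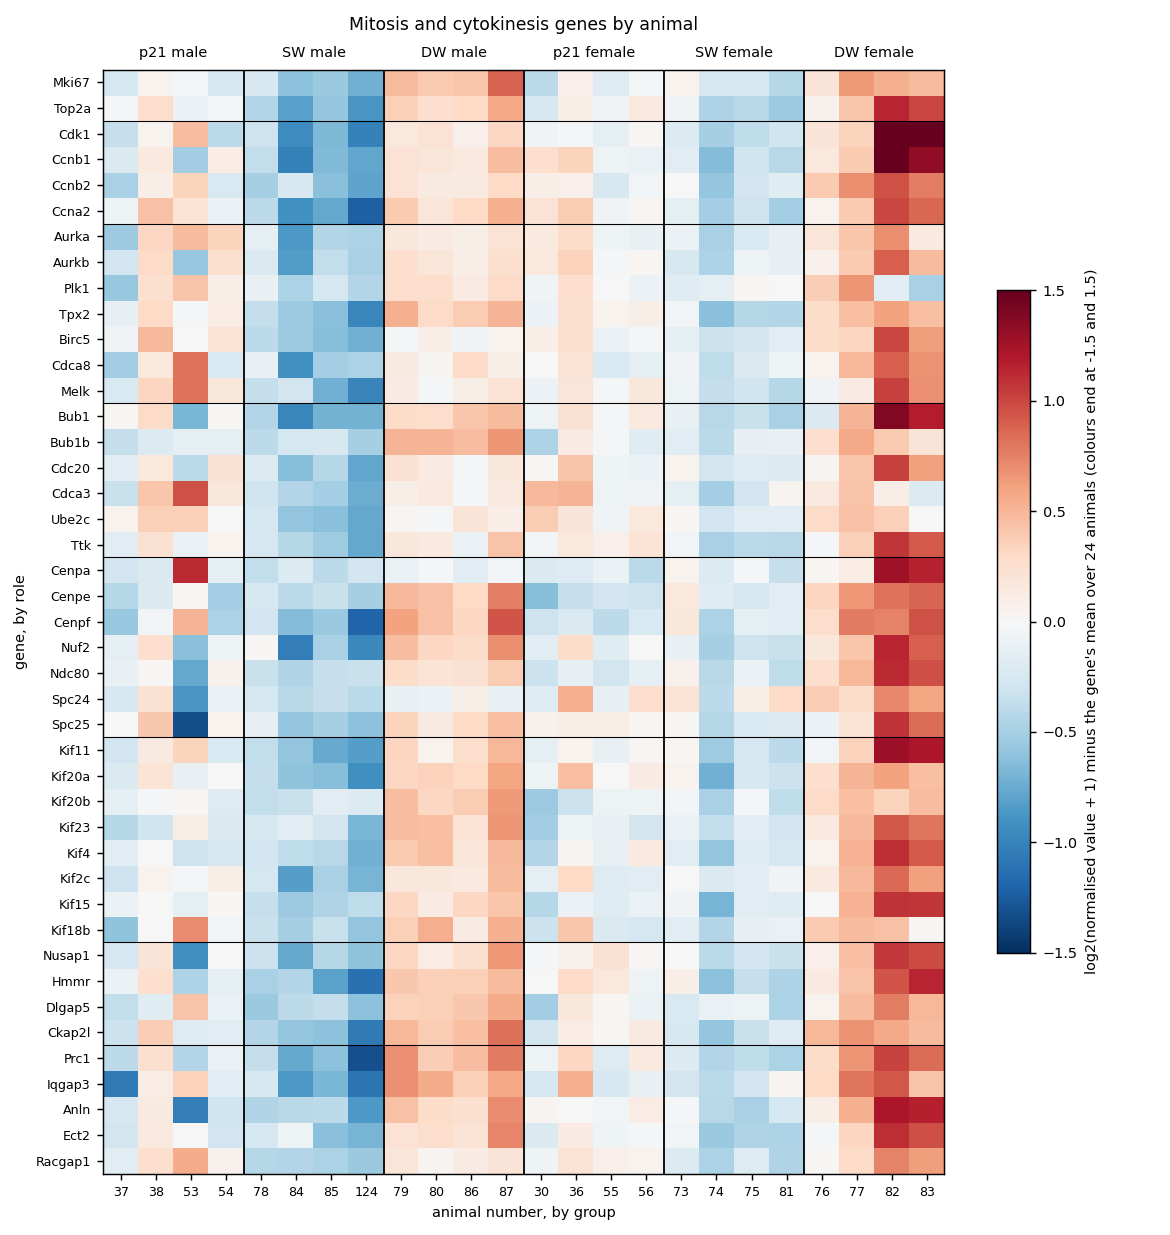
Log2(normalised value + 1) of each gene minus its mean over 24 animals (colour), for the 43 genes (rows, by role) and the 24 animals (columns, by group). SW males and SW females are mostly blue and DW males and DW females mostly red, and DW females 82 and 83 hold the deepest red cells, with Plk1 and Cdca3 as exceptions.

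Values are given below in the order of animals 78, 84, 85 and 124 for SW males, 79, 80, 86 and 87 for DW males, 73, 74, 75 and 81 for SW females and 76, 77, 82 and 83 for DW females. Both chromosome genes rose in both sexes. Mki67, which encodes the Ki-67 protein that coats mitotic chromosomes and marks dividing cells, had the highest mean of the 43 genes per kilobase of exon, at 6.31 units per kilobase in p21 males. Mki67 had values of 57.8, 44.6, 46.5 and 41.2 in SW males and of 95.7, 90.6, 92.0 and 128 in DW males. It had 71.01, 57.7, 57.5 and 50.7 in SW females and 78.8, 107, 99.5 and 95.5 in DW females. The groups did not overlap in either sex. Mki67 rose by 1.08 ± 0.14 (SE) log2 units in males (adjusted p = 0.000576, limma) and by 0.68 ± 0.14 in females (adjusted p = 0.0137), and it was called in males with each animal left out in turn. Top2a encodes topoisomerase II alpha, which untangles sister chromatids. Its values were 25.1, 19.2, 22.7 and 18.4 in SW males and 44.4, 41.2, 42.6 and 52.1 in DW males. In females Top2a had 33.1, 24.8, 25.6 and 23.4 after SW and 36.0, 46.3, 77.1 and 69.8 after DW, the last 2 from animals 82 and 83. Top2a rose by 1.05 ± 0.18 in males (adjusted p = 0.00839) and by 1.02 ± 0.18 in females (adjusted p = 0.00561).

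Of the 4 genes for cyclins and their kinase, 1 rose in males and all 4 rose in females. Ccna2 encodes cyclin A2, which works from S phase into mitosis. Ccna2 had 13.3, 9.06, 10.0 and 7.08 in SW males and 23.6, 20.3, 22.1 and 26.2 in DW males, without overlap. Its change was 1.17 ± 0.19 in males (adjusted p = 0.00626, limma) and 0.95 ± 0.19 in females (adjusted p = 0.0131). Cdk1, the kinase that drives entry into mitosis, had 5.43, 4.27, 4.70 and 5.02 in SW females and 7.49, 8.32, 27.3 and 20.6 in DW females. Females 82 and 83 were far above the other DW females for Cdk1, and 76 and 77 also lay above all SW females. Cdk1 changed by 1.35 ± 0.28 in females (adjusted p = 0.0164) and by 0.93 ± 0.28 in males, where it missed the threshold (adjusted p = 0.283). Ccnb1 encodes cyclin B1, the partner of CDK1, and had 3.76, 2.40, 3.30 and 2.99 in SW females against 4.91, 5.95, 14.5 and 12.4 in DW females. Ccnb1 and Ccnb2 changed by 1.23 and 0.96 in females, both called, and by 0.96 and 0.74 in males, neither called.

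**Figure D3:**
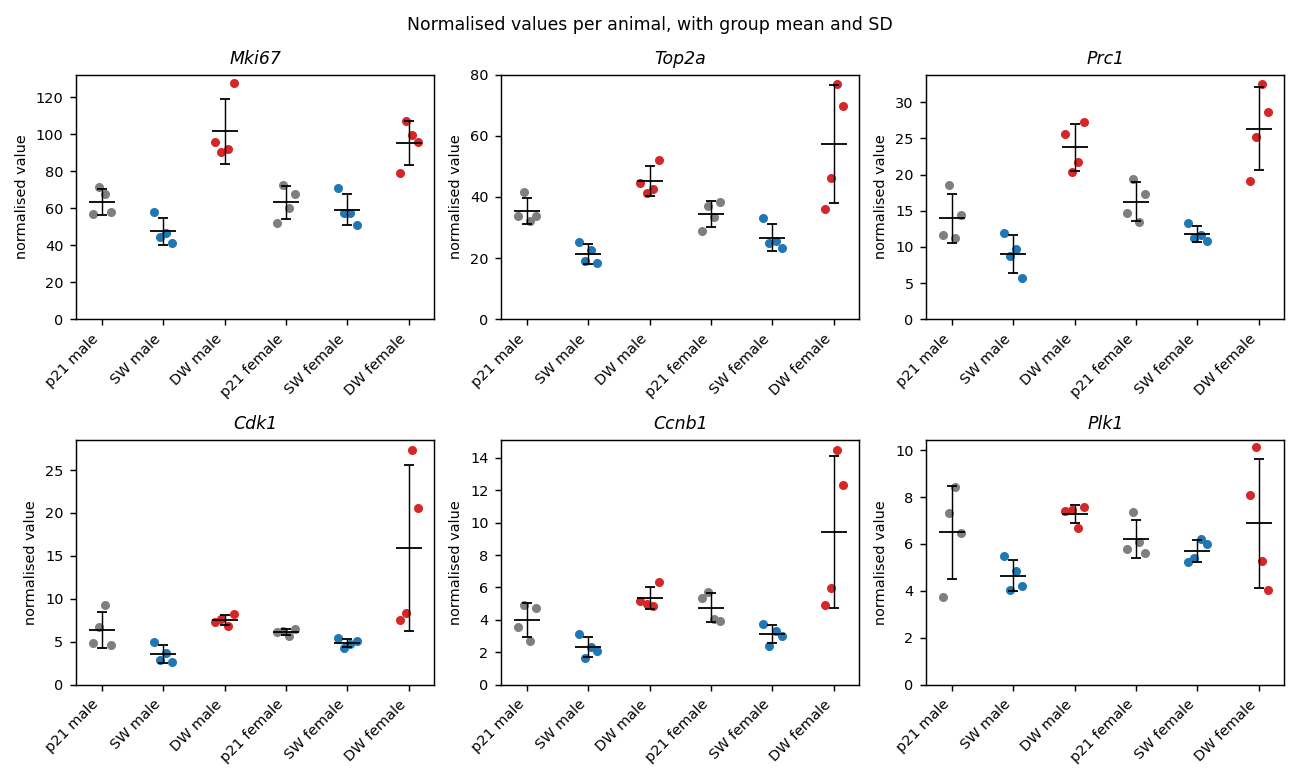
Normalised value (y axis, linear from 0) of 6 genes in each animal (points), with the mean and SD of each group of 4 (lines), for p21, SW and DW males and females. Mki67, Top2a, Prc1, Cdk1 and Ccnb1 show DW animals above SW animals in both sexes, and Plk1 shows 2 DW females above and 2 below most SW females.

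Cytokinesis genes held the largest change in males. Prc1 bundles the microtubules of the central spindle, where the cleavage furrow forms. Its values were 11.9, 8.68, 9.77 and 5.66 in SW males and 25.6, 20.3, 21.8 and 27.3 in DW males. In females Prc1 had 13.4, 11.2, 11.7 and 10.9 after SW and 19.1, 25.2, 32.5 and 28.7 after DW. No animal of one group reached the other in either sex. Prc1 rose by 1.34 ± 0.19 in males (adjusted p = 0.00145, limma) and by 1.08 ± 0.19 in females (adjusted p = 0.00574), and in every fit with 1 animal left out. Iqgap3, a scaffold protein that binds actin, rose by 1.27 ± 0.25 in males (adjusted p = 0.0206) and changed by 0.85 ± 0.25 in females (adjusted p = 0.0942). Anln (anillin, a scaffold of the contractile ring), Ect2 (which activates RhoA at the furrow) and Racgap1 (the subunit of centralspindlin that binds ECT2) rose in females, by 1.05, 0.97 and 0.75, and changed by 0.95, 0.77 and 0.61 in males without passing the test.

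Among the 8 kinesins, the motor proteins that move along or take apart microtubules, 5 rose in males and 7 in females. Kif23 is the motor subunit of centralspindlin. It had 8.42, 8.86, 8.17 and 5.92 in SW males and 14.4, 14.2, 11.8 and 16.7 in DW males, and its changes were 0.79 ± 0.16 in males (adjusted p = 0.0352, limma) and 0.82 ± 0.16 in females (adjusted p = 0.0131). Kif20a, a motor of the central spindle, rose too, with 1.01 in males and 0.76 in females. Kif20b, Kif4 and Kif2c rose in both sexes as well, by 0.72, 0.83 and 0.82 in males and by 0.61, 0.95 and 0.63 in females. Kif2c depolymerises microtubules at the centromere. With 1 animal left out in turn, Kif4 in males (adjusted p = 0.0471, limma) was called in 0 of 8 fits and Kif23 in 1. In females each of these 2 was called in 6. Kif2c was called in 3 of 8 in males and 2 in females, and Kif20b in 6 and 4. Kif11, the motor that pushes spindle poles apart, and Kif15 passed the test in females alone, at 0.99 and 0.94. Kif18b was called in neither sex, at 0.83 in males and 0.54 in females.

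Of the 4 spindle microtubule genes, 3 rose in males (Hmmr, Dlgap5 and Ckap2l) and 3 in females (Nusap1, Hmmr and Ckap2l). Ckap2l had 6.19, 5.49, 5.35 and 3.65 in SW males and 12.7, 11.6, 12.3 and 16.2 in DW males. In females it had 7.25, 5.52, 6.73 and 7.47 after SW and 12.7, 14.5, 13.4 and 12.5 after DW, so that animals 82 and 83 were not above the other DW females. Ckap2l rose by 1.21 ± 0.16 in males (adjusted p = 0.000576, limma) and by 0.89 ± 0.16 in females (adjusted p = 0.00584). Hmmr, which encodes a spindle protein that also binds hyaluronan, rose by 1.11 and 0.99.

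The 7 mitotic kinases and partners of Aurora kinases gave 1 call in males and 2 in females. Tpx2, which targets Aurora A to the spindle, had 13.6, 11.9, 11.2 and 8.50 in SW males and 26.1, 22.0, 23.5 and 25.8 in DW males, and 17.2, 11.1, 13.0 and 12.8 in SW females and 21.7, 24.7, 27.5 and 24.7 in DW females. It rose by 1.06 ± 0.14 in males (adjusted p = 0.000576, limma) and by 0.83 ± 0.14 in females (adjusted p = 0.00402), and in every fit with 1 animal left out. Birc5 (survivin, of the chromosomal passenger complex) rose in females alone, by 0.78. Aurka and Aurkb, the Aurora kinases, missed the threshold in both sexes, with changes of 0.63 and 0.67 in males and 0.59 and 0.69 in females, as did Cdca8 (0.64 and 0.71) and the kinase gene Melk (0.68 and 0.73). Plk1, the Polo kinase that acts throughout mitosis, had 5.22, 5.40, 6.21 and 5.99 in SW females and 8.08, 10.1, 5.27 and 4.01 in DW females. DW females 76 and 77 lay above every SW female for Plk1, and 82 and 83 did not. Its change was 0.17 ± 0.20 in females (adjusted p = 0.667) and 0.56 ± 0.20 in males (adjusted p = 0.484).

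Checkpoint and anaphase-promoting complex genes rose in part, with 2 of 6 in males and 3 of 6 in females. Bub1b, whose product BUBR1 holds back anaphase until chromosomes are attached, had 10.5, 11.6, 11.8 and 9.65 in SW males and 20.5, 20.5, 19.9 and 22.9 in DW males. Bub1b rose by 0.88 ± 0.12 in males (adjusted p = 0.00101, limma) and by 0.55 ± 0.12 in females (adjusted p = 0.0259). Ube2c, the ubiquitin-conjugating enzyme of the complex, rose in males by 0.63. Bub1 and Ttk, kinases of the checkpoint, rose in females by 1.05 and 0.92. Cdc20, the activator of the complex in mitosis, and Cdca3 were called in neither sex, with 0.63 and 0.59 in males and 0.68 and 0.34 in females.

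Of the 7 centromere and kinetochore genes, 3 rose in each sex. Cenpe, a kinesin of the kinetochore, and Nuf2 of the NDC80 complex rose in both, by 0.86 and 1.06 in males and by 0.77 and 0.96 in females. With 1 animal left out, Nuf2 was called in 1 of 8 fits in males and in 2 in females, and Cenpe in 7 and 6. Cenpf rose in males, by 1.25, and Ndc80 in females, by 0.92. Cenpa encodes the histone H3 variant that marks centromeres. It had 2.84, 3.30, 2.77 and 3.08 in SW males, 3.62, 3.89, 3.46 and 3.83 in DW males, 4.13, 3.30, 3.86 and 2.90 in SW females, and 4.07, 4.36, 11.0 and 10.1 in DW females. Cenpa in DW females 76 and 77 lay among or just above the SW females, and in 82 and 83 far above them. Its change was 0.23 ± 0.26 in males and 0.78 ± 0.26 in females, neither called. Spc24 and Spc25, other subunits of the NDC80 complex, were called in neither sex, with 0.30 and 0.76 in males and 0.44 and 0.72 in females.

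The animals taken at p21 place the p28 groups in time. The order of means was SW below p21 below DW for 35 members in males and 36 in females (35 without DW females 82 and 83). The share of all genes in this order is not given. The members come from the same animals, so they are not separate results. From p21 to p28 with standard weaning, 13 of the 43 fell in males, where 4.97 percent of all genes fell, and the median log2 change was -0.50. In females 1 fell (Tpx2, by 0.46), where 4.23 percent of all genes fell, and the median was -0.28. From p21 to p28 with delayed weaning, 11 rose in males (median 0.37, with 8.86 percent of all genes called higher) and 22 in females (median 0.57, with 5.95 percent called higher). Without DW females 82 and 83 that last count was 4.

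The largest falls from p21 to SW in males were those of Ccna2, by 0.95 ± 0.19 (adjusted p = 0.0027), and Melk, by 0.85 ± 0.21. The largest rises from p21 to DW were those of Anln and Cenpe in males, both by 0.78, and Cenpe in females, by 1.06 ± 0.15. Cenpe had 5.91 ± 1.14 (SD, n = 4) at p21, 5.47 ± 0.50 after SW and 10.8 ± 1.63 after DW in males. For Ccna2 the same groups had 19.8 ± 3.72, 9.87 ± 2.61 and 23.1 ± 2.47. In males Cenpe passed the test against p21 after DW and not after SW, and Ccna2 passed it after SW and not after DW. These comparisons share the p21 animals, and the DW and SW groups each enter more than one of them.

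None of the 43 was called between females and males at p21 (0.356 percent of all genes called, median change 0.0007), after SW (3.54 percent, median 0.28) or after DW (2.46 percent, median 0.26). At p21 no member had an unadjusted p under 0.05 by limma, edgeR or DESeq2. After SW 8 members did by limma, and edgeR called 0 and DESeq2 called 1. After DW 9 did by limma, and edgeR called 1 and DESeq2 called 3. All 43 members had a higher mean in SW females than in SW males, and 38 had one in DW females than in DW males. These 2 counts also stand without a share of all genes. Without DW females 82 and 83 the count after DW was 20, and limma called 0 members between the sexes after DW, with a median of -0.01.

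Other cell cycle genes were read from lists by function. Of 53 other G2 and M phase genes, 6 rose in DW males, led by Aspm at 1.07, Cep55 at 0.98 and Nek2 at 0.91, and 16 rose in DW females, led by Pbk at 1.15, Ckap2 at 0.97 and Ncapg at 0.93. None fell. In females this count was 0 without DW females 82 and 83 (median 0.36, 23 at an unadjusted p under 0.05) and 0 in a fit of the compared groups alone (41 at an unadjusted p under 0.05). With all animals edgeR called 5 in males and 13 in females and DESeq2 18 and 27. Aspm acts at spindle poles and Ncapg in condensin. Of 17 cell cycle transcription factors, limma called Foxm1 in males and none in females, with 5 and 4 at an unadjusted p under 0.05. After adjustment edgeR called 1 and 0 and DESeq2 3 and 1. Foxm1 rose in males by 0.90 ± 0.16 (adjusted p = 0.0105, limma), from 7.14 ± 0.85 (SD, n = 4) after SW to 14.1 ± 1.27 after DW. In females Foxm1 had 8.38 ± 0.98 after SW and 13.0 ± 2.23 after DW (change 0.57 ± 0.16, adjusted p = 0.0745). Mybl2, which encodes B-MYB, was not called in either sex by limma, at 0.36 and 0.17.

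DNA replication genes, whose products copy DNA in S phase, were read in the same comparisons. None of the 34 was called between DW and SW in either sex by limma, with medians of 0.34 in males and 0.33 in females. At an unadjusted p under 0.05 there were 19 in males and 17 in females, and after adjustment edgeR called 0 and 1 and DESeq2 4 and 7. From p21 to SW, 22 of the 34 fell in males (median -0.54), among them Dtl by 1.14 and Uhrf1 by 1.09, and 10 fell in females (median -0.42). From p21 to DW none rose, 4 fell in males (Uhrf1, Ccne1, Mcm2 and Tyms) and 2 in females (Uhrf1 and Ccne1), with medians of -0.22 and -0.08. Over all genes 6.1 percent fell in males and 6.16 percent in females, so the count in females was near the background. Without DW females 82 and 83 the DNA replication genes had 0 calls between DW and SW in females (median 0.16, 2 at an unadjusted p under 0.05), and 3 fell from p21 to DW (median -0.25). The mitosis and cytokinesis genes had medians of 0.37 and 0.57 from p21 to DW with all animals, and of 0.29 in females without 82 and 83. The difference between the lists was not tested. Of 15 anaphase-promoting complex subunits and 13 G1 cyclins and kinase inhibitors, limma called none between DW and SW, with medians between -0.01 and 0.06. The subunits had 1 gene at an unadjusted p under 0.05 in each sex and the G1 genes 2, and after adjustment edgeR called none and DESeq2 called 1 G1 gene in males.

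**Figure D4:**
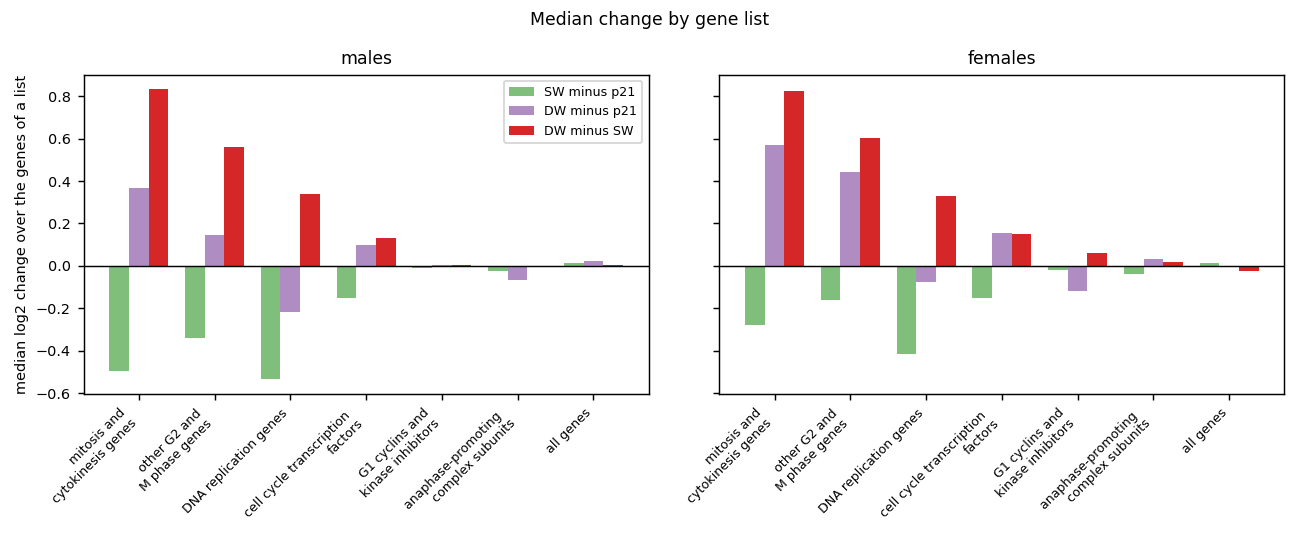
Median log2 change over the genes of each list (y axis) for SW minus p21, DW minus p21 and DW minus SW, in males and females, with all genes at the right. The mitosis and cytokinesis genes fall below 0 from p21 to SW and above 0 from p21 to DW, while DNA replication genes lie below 0 in both.

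Promoter sequence was read for the members, which were taken as G2 and M phase genes, the class that DREAM acts on. The shares below describe that class, and their link to the weaning change was not tested. RefSeq promoters of build GRCm38.p6, from 250 bases before the transcription start to 50 after it, were found for 37 of the 43 members in 39 windows. The cell cycle homology region (CHR), bound by DREAM and by B-MYB complexes, was searched as TTTGAA or TTCGAA on both strands, and the CCAAT box, bound by NF-Y, as CCAAT on both strands. A CHR match lay in 84.6 percent of the members' windows, beside 19.2 percent of all 32851 promoter windows. It began and ended within 50 bases of the start in 79.5 percent against 5.31 percent, a distance chosen after the matches were seen. A CCAAT match lay in 74.4 percent against 37.4 percent. The E2F motif, searched as TTTCCCGC or TTTGGCGC on both strands, lay in 2.56 percent of the members' windows against 1.57 percent. In the windows of the DNA replication genes it lay in 30.3 percent, and CHR in 15.2 percent. CHR letters lay in 62.7 percent of windows of the other G2 and M phase genes and in 11.8 percent of those of the anaphase-promoting complex subunits.

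**Figure D5:**
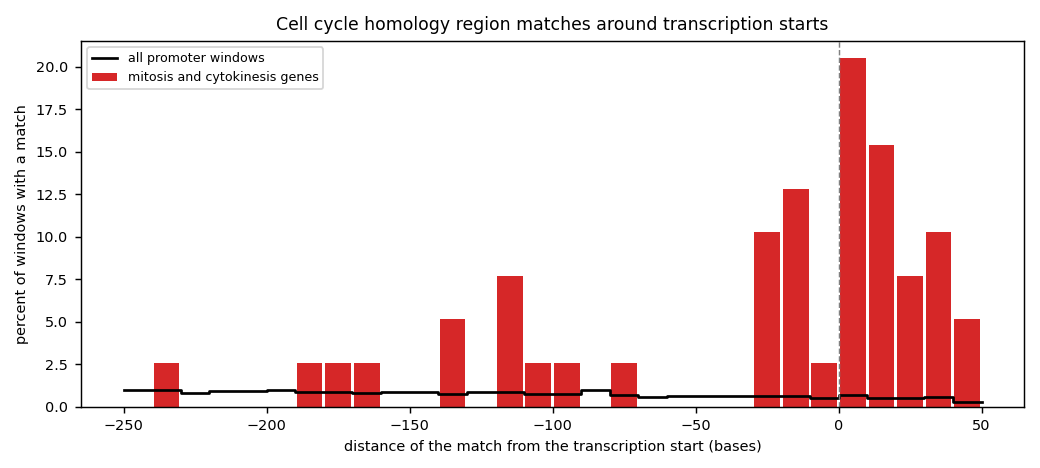
Percent of promoter windows with a CHR match beginning in each 10-base bin (y axis) by distance from the transcription start (x axis), for the 39 windows of the mitosis and cytokinesis genes (bars) and for all 32851 windows (line). The bars are tallest between 0 and 9 bases after the start, at 20.5 percent.

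The promoters below show the arrangement in members with calls in the weaning comparison, 120 bases before the start to 29 after it, 5′ to 3′ on the gene's strand, with CHR and CCAAT letters, or their reverse complements TTCAAA and ATTGG, in capitals. Ccnb2, at chr9:70421525-70421674 on the minus strand, has 3 CCAAT boxes and then CHR letters just after the start. Cdk1, at chr10:69352883-69353032 on the minus strand, has 2 of each. Kif23, at chr9:61946770-61946919 on the minus strand, has 1 of each at the start. Hmmr is at chr11:40733408-40733557 on the minus strand, Top2a at chr11:99024160-99024309 on the minus strand and Prc1 at chr7:80294331-80294480 on the plus strand. Ccnb1, at chr13:100786457-100786606 on the minus strand, is shown because it has CCAAT boxes and no CHR letters of the searched forms in the window.
Ccnb2: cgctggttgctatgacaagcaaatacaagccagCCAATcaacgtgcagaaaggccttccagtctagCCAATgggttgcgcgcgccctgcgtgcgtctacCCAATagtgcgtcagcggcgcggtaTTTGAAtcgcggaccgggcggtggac
Cdk1: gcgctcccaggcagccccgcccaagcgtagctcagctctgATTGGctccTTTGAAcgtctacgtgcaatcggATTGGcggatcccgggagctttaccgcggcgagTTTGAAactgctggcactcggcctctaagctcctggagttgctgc
Kif23: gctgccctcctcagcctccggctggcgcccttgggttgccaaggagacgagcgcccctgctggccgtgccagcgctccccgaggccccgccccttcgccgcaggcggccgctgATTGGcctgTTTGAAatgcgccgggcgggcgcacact
Hmmr: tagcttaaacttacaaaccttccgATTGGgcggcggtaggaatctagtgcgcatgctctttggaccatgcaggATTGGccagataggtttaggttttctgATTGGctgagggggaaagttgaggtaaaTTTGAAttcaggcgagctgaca
Top2a: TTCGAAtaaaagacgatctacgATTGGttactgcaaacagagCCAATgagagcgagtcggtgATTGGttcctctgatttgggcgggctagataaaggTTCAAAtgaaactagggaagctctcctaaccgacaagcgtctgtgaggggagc
Prc1: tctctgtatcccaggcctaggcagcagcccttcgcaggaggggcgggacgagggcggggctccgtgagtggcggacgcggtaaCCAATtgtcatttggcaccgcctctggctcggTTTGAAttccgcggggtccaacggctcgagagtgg
Ccnb1: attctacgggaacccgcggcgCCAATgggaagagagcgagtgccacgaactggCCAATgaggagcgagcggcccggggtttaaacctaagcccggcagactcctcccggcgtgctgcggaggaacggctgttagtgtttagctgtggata

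31 of the 37 members held CHR letters in a searched form, and 6 did not: Birc5, Ccnb1, Cenpe, Melk, Nuf2 and Nusap1. Of these 6, Cenpe and Nuf2 rose in both sexes and Birc5, Ccnb1 and Nusap1 in females. Over all 43 members, 11 were called in neither sex. Whether calls differed between members with and without CHR letters was not tested. Plk1 and Aurka, called in neither sex, held CHR letters beginning 30 and 32 bases after the start. Forms of CHR other than TTTGAA and TTCGAA were not searched, so a window without a match may hold another form. A match is a stretch of letters and not a bound site, and no factor's binding was measured in these animals.

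Markers of other cells were summed per animal to see what moved beside the mitosis genes. The 8 adipocyte markers overlapped between DW and SW in both sexes. So did the sums of 8 adipose progenitor, 6 endothelial, 6 macrophage, 12 lymph node B and T cell, 8 erythroid and 6 skeletal muscle markers, with none of those genes called between DW and SW in either sex by limma. The adipose progenitor sum ran from 613 to 782 in SW males, 729 to 852 in DW males, 603 to 759 in SW females and 693 to 869 in DW females. 5 germinal centre markers, included because B cells divide in lymph nodes of this depot, summed to 44.6 to 73.8 in SW males and 77.2 to 148 in DW males, without overlap. Most of that sum was Bcl6, at 35.6 to 66.1 and 67.5 to 138. In females the same sum was 55.6 to 92.3 after SW and 54.6 to 70.4 after DW. 8 mammary epithelial markers went the other way in females, at 232 to 318 after SW and 66.9 to 182 after DW, lowest in animals 82 and 83. The same 2 animals had the lowest endothelial sums of the DW females, 1029 and 929, against 1482 and 1531 in the other pair. Most of that gap was Cdh5, at 318 and 252 against 719 and 716. Pecam1 and Vwf were also lower in 82 and 83, and Kdr, Tek and Emcn overlapped between the pairs. Erythroid sums were 170 and 114 in 82 and 83 against 395 and 339. In the adipocyte list Pnpla2, Lipe, Cidec, Plin4 and Adipoq were lower in 82 and 83 than in every other p28 female, and Plin1, Fabp4 and Lep were not. In the macrophage list Cd68, Cd163 and Csf1r were lower in the same way, and Adgre1 and Mrc1 were not. Lyz2 was higher in 82 and 83, at 412 and 477, than in every other p28 female, at 214 to 402. These genes are named after their values were seen. Pnpla2, the first lipase of fat breakdown, had 616 and 465 in 82 and 83, 1860 and 1568 in 76 and 77, and 1164 to 2084 in SW females. Lipe, the hormone-sensitive lipase, had 484 and 357 against 773 and 817, and Cidec, a lipid droplet protein, 306 and 306 against 733 and 612. The macrophage genes Cd68 and Cd163 had 25.2 and 21.2 and 49.8 and 58.5 in 82 and 83, against 92.0 and 80.8 and 143 and 159 in 76 and 77. The part of these cells in the mitosis result was not tested.

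The labels name no batch. As a check the p28 animals, whose numbers run unbroken from 73 to 87 apart from SW male 124, were divided into 73 to 80 and 81 to 87, a split that the labels do not give. SW male 124 is in neither. The median DW minus SW difference over the 43 genes was 0.57 in males of the first run (2 DW and 1 SW) and 0.86 in the second (2 and 2). In females it was 0.55 in the first run (2 and 3) and 1.11 in the second (2 and 1). All 43 members were higher in DW in each of these except the second run of females, where 41 were. With the run as a covariate, p28 animals alone in the fit and 124 as a run of its own, 13 members were called in males and 20 in females by limma. The share of all genes called in that fit is not given.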

How the data were processed

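Poly(A) RNA was sequenced from 1 library per animal, prepared with the KAPA mRNA HyperPrep kit per the labels' protocols. The authors deposited a normalised signal per gene and sample, and the submitters' processing notes name fastp, HISAT2, featureCounts, DESeq2 1.38.3 and mm10 without saying what each did. All deposited signal values (100 percent, within 0.001 read) were whole multiples of the sample's smallest value, so whole reads were recovered. They are not known to be separate molecules. Repeated rows (90 of 16208) were left out. Only 2.9 percent of the deposited gene starts lay within 1000 bases of those in GRCm38.p6, so positions come from RefSeq promoters alone.

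Genes were kept by filterByExpr (minimum count 10) on recovered reads. Log2(value + 1), which understates changes of low genes, was fitted for all 24 animals with 6 group means and 18 residual degrees of freedom (limma 3.58.1 with a variance trend, R 4.3.3). This replaced the count test because the file held normalised values. Each of 10 contrasts was adjusted by Benjamini-Hochberg over 16005 genes. In simulated data for delayed against standard weaning in males, 128 of 200 genes changed by 1 log2 unit were recovered among 15888, with 8 false calls. Alternatives used edgeR 4.0.16 and DESeq2 1.42.0 on recovered reads. Levels per kilobase used exon lengths of GENCODE. The members, the other lists and the alternatives were chosen with earlier results of these data known. Every member may be named; other list genes are named where called, the largest first, or where a result turns on them. The age labels and descriptions set the p21 groups, although those libraries' titles say p28. Single values of some list genes are not reported here.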

Additional observations from a re-analysis of the deposited data

Results flagged for a closer look

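12 of 264 groups of 4 animals had 1 animal far from the other 3, by Dixon's criterion on the gap to the nearest animal, beside about 13.2 that chance gives at 1 in 20. In DW males, animal 87 was highest for Mki67 (128), Kif2c (6.59) and Ect2 (9.46), and animal 86 for Spc24 (1.84). In SW males, animal 124 was lowest for Anln (4.75) and animal 84 for Ndc80 (2.04). In SW females, animal 74 was lowest for Bub1b (10.4). At p21, male 37 was lowest for Aurka (2.78) and male 53 highest for Cenpa (9.77), female 30 was lowest for Cenpe (4.33), and female 36 was highest for Kif2c (5.71) and Kif18b (5.55). DW females 82 and 83 were not picked out this way, since 2 animals stood apart together.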

How the results depend on the processing

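Counts of members called depended on the tool and on single animals more than their direction did. The shares of all genes called that are given above belong to the main limma fit, and none is given for the alternatives. For delayed against standard weaning, DESeq2 called 33 in males, a fit of the compared groups alone 33 in males and 0 in females, and the fit without DW females 82 and 83 called 0 in females. With 1 animal left out the count ran from 7 to 16 in males and from 5 to 38 in females. 7 members in males and 5 in females were called in each of those 8 fits. All 43 members in males and 42 in females kept a higher level in DW in them. The exception was Plk1 in females, at -0.023 without DW female 77 and up to 0.36 without 83. From p21 to SW, DESeq2 called 23 in males and the compared groups alone 6, with 8 to 17 when 1 animal was left out. In females the compared groups alone gave 7, the fit without p21 male 53, SW male 84 and p21 female 36 gave 0, and leaving out 1 animal gave 0 to 2. From p21 to DW, leaving out 1 animal gave 6 to 13 in males and 10 to 32 in females, where the compared groups alone and the fit without 82 and 83 each gave 4. Between the sexes after SW, DESeq2 called 1 and leaving out 1 animal gave 0 to 1. After DW, a filter of value 1 in 4 samples, edgeR with TMM, edgeR with DESeq2 size factors and the fit without 53, 84 and 36 each gave 1, DESeq2 gave 3 and leaving out 1 animal gave 0 to 11. No paired analysis was possible because animal numbers are not shared between groups. In single members, 1174 of the alternative values kept their side of the threshold, 251 lost it, 37 gained it and 1 reversed. The cause of these shifts was not tested. With a pseudocount of 0.1 the counts for weaning were 20 in males and 24 in females. The standard errors were widest for Cdk1 (0.28), Spc25 (0.27) and Cenpa (0.26). The counts of the other cell cycle lists and the order of means without DW females 82 and 83 were added after seeing the data.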
